A study of Papaver somniferum with 9 samples.

Results

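The unigenes described here were above 1 RPKM in all 3 leaf samples and at or under 1 RPKM in all 6 stem and root samples of the opium poppy (Papaver somniferum). RPKM divides the reads on a unigene by its length and by how many reads were mapped in that sample. Of 61856 unigenes, 937 met these limits, and the 200 with the highest lowest leaf value were taken as members. The members were thus chosen by their leaf, stem and root values, and the differences of leaf from stem and root are given as a description without a test. The samples were 3 of leaf, 3 of stem and 3 of root from cultivar B1, which the study treats as the original state of the species, all collected at the filling stage, and no treatment is named. Leaf was the top leaf, stem a short piece from the middle of the stem, and root an underground part. The study collected independent samples but does not say whether a replicate was 1 plant or several, so spreads describe these samples. The study lists lower RNA integrity for each leaf sample than for any stem or root sample, so leaf and RNA integrity cannot be told apart.

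The leaf blade is the main organ of photosynthesis, and its mesophyll, stomata and cuticle-forming epidermis use genes that a root does not need. A poppy stem is also green and carries epidermis and chloroplasts, so many genes of green tissue are active in both stem and leaf. In this species all 3 organs contain laticifers, the latex-filled cells that store benzylisoquinoline alkaloids such as morphine. A bulk value averages over all cells of an organ, so fewer cells of a type and less RNA per cell cannot be told apart. The unigene IDs come from the study's own long-read transcriptome, and the expression table does not pair them with gene names. A search of RefSeq's poppy genes for these IDs matched 0, so members are given by their IDs, without a function or a sequence.

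The summed RPKM ran from 1041238 to 1090568 in leaf, from 969280 to 1092543 in stem and from 898884 to 958702 in root. Stem replicate 3 had the lowest median over all unigenes, 0.68 RPKM, against 0.91 to 1.27 RPKM in the other 8 samples. Read counts are not part of the values, which leaves the reads behind each low value unknown, and an RPKM of 0 was read only as listed at 0.

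Across the 200 members the median was 13.5, 13.5 and 15.7 RPKM in leaf replicates 1, 2 and 3. It was 0.235, 0.12 and 0.105 RPKM in stem replicates 1, 2 and 3, and 0, 0.02 and 0.0050 RPKM in root replicates 1, 2 and 3. Leaf and the other organs do not overlap, as the limits require, but stem and root differ in how far below the limit they lie. Together the members held 0.741% ± 0.0170 of the summed RPKM in leaf, 0.00480% ± 0.00136 in stem and 0.00209% ± 0.000106 in root (SD, n = 3 samples each). They form a small share of the leaf library, although by mean leaf level the lowest member stood at percentile 77.0 of all unigenes and the median member at percentile 87.4. The amount was uneven over the members. The first 10 members held 45.2% of the members' summed leaf RPKM and the first 50 held 73.5%. The lowest leaf value was above 100 RPKM in 9 members, above 50 in 20, above 20 in 52 and above 10 in 108.

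**Figure D1:**
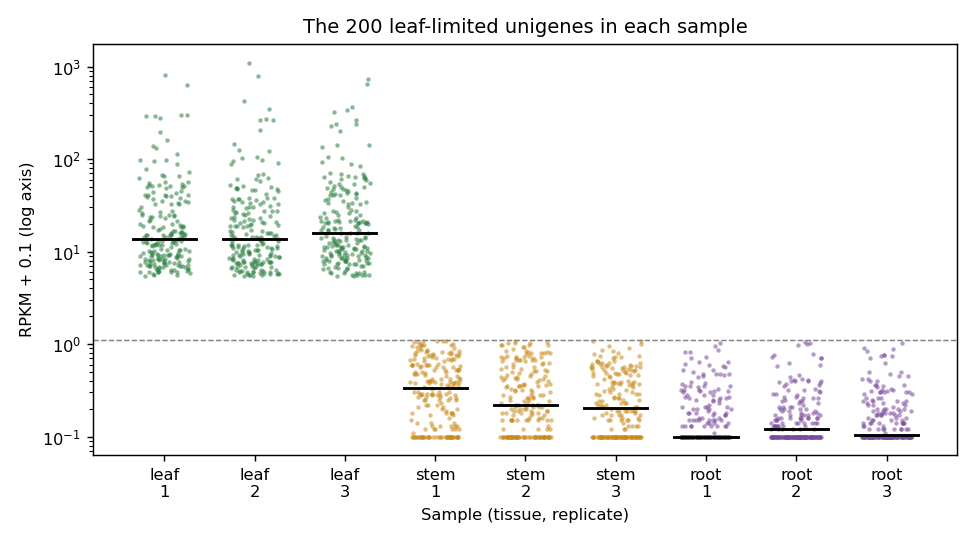
RPKM + 0.1 on a log axis for the 200 members in each of the 9 samples, by tissue and replicate. Points are unigenes, black bars are medians and the dashed line is the limit of 1 RPKM. Leaf points start at 5.29 RPKM, and the stem medians, 0.105 to 0.235 RPKM, stand above the root medians, 0 to 0.02 RPKM.

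The member with the highest lowest leaf value was PB.58761.2. It had 809.4, 789.0 and 646.0 RPKM in leaf replicates 1, 2 and 3, 0.87, 0.44 and 0.28 RPKM in stem replicates 1, 2 and 3, and 0.38, 0.30 and 0.81 RPKM in root replicates 1, 2 and 3. PB.9941.36 had the highest single value of the set, with 637.1, 1104 and 744.3 RPKM in leaf replicates 1, 2 and 3. It had 0.85, 0.83 and 0.15 RPKM in stem replicates 1, 2 and 3, and 0.72, 0.30 and 0.22 RPKM in root replicates 1, 2 and 3. In both unigenes stem replicate 1 was the highest of the stem samples, and stem and root overlapped.
PB.52333.3 followed with 338.7 ± 39.6 RPKM in leaf, 0.33 ± 0.0721 in stem and 0.293 ± 0.349 in root (SD, n = 3 samples each). PB.44709.2 had 295.9 ± 32.0 RPKM in leaf, 0.283 ± 0.137 in stem and 0.153 ± 0.0208 in root (SD, n = 3 samples each). PB.58767.2 had 266.0 ± 28.6 RPKM in leaf, and was listed at 0 in 1 stem sample and 2 root samples, with at most 0.29 RPKM in stem and 0.25 RPKM in root. In these 5 leading members the highest leaf sample was between 1.24 and 1.73 times the lowest.

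At the other end of the set the cut of 200 fell on a tie. PB.30498.6, the last member but 1, had 5.33, 9.29 and 7.34 RPKM in leaf replicates 1, 2 and 3 and at most 0.07 RPKM in stem and 0.05 RPKM in root. PB.32298.1, the last member, had 7.82, 5.29 and 10.1 RPKM in leaf and at most 0.08 RPKM in stem and 0.05 RPKM in root. The first unigene left out, PB.60350.1, had the same lowest leaf value of 5.29 RPKM and lost its place by the order of IDs. It had 0.49, 0.69 and 0.15 RPKM in stem replicates 1, 2 and 3 and was listed at 0 in all 3 root samples. PB.60136.1 came next with a lowest leaf value of 5.27 RPKM. The members are thus the upper end of a continuous list, whose lowest leaf value has a median of 10.9 RPKM over the 200 members and of 2.19 RPKM over all 937 unigenes.

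**Figure D2:**
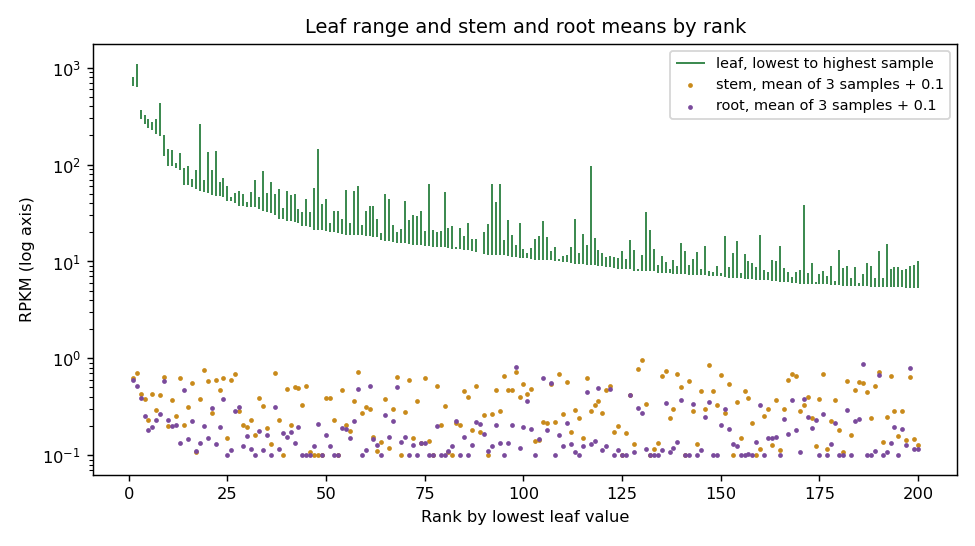
Leaf range (line from the lowest to the highest leaf sample, RPKM on a log axis) and stem and root means of 3 samples (points, RPKM + 0.1) for each member, ordered by rank. The lowest leaf value falls from 646.0 RPKM at rank 1 to 5.29 RPKM at rank 200, while stem and root means show no such fall.

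The level below the limit did not follow the level in leaf. In ranks 1 to 50 the mean was 116.6 RPKM in leaf, 0.268 in stem and 0.109 in root. In ranks 151 to 200 it was 7.85 RPKM in leaf, 0.233 in stem and 0.102 in root. The stem mean was therefore 0.230% of the leaf mean in the first 50 members and 2.96% in the last 50. The limit itself keeps every stem and root value at or under 1 RPKM, whatever the leaf level.

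The word only holds at the limit of 1 RPKM and not below it. Just 6 members were listed at 0 in all 6 stem and root samples, and 194 had a value above 0 in at least 1 of them. At or under 0.1 RPKM in all 6 samples were 30 members, and at or under 0.5 RPKM were 116. The 6 members at 0 throughout, chosen after their values were seen, were PB.61288.1, PB.60413.2, PB.51387.2, PB.57600.1, PB.60514.1 and PB.29646.1. PB.61288.1, the highest of these by its lowest leaf value, had 39.0, 37.5 and 21.3 RPKM in leaf replicates 1, 2 and 3. The other extreme was PB.56579.1, with the largest summed value in stem and root. It had 11.1, 11.1 and 14.7 RPKM in leaf replicates 1, 2 and 3, against 0.89, 0.71 and 0.29 RPKM in stem and 0.43, 0.94 and 0.79 RPKM in root. PB.44033.1 had 6.31 ± 1.04 RPKM in leaf, 0.453 ± 0.393 in stem and 0.783 ± 0.156 in root (SD, n = 3 samples each). PB.40467.1 had 6.73, 5.36 and 8.92 RPKM in leaf replicates 1, 2 and 3, against 0.59, 0.62 and 0.41 RPKM in stem and 0.93, 0.62 and 0.53 RPKM in root. For these 3 members stem and root overlapped, and every leaf value was far above both.

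Stem and root were then compared below the limit, a contrast on which the limits act alike for both organs. The mean was higher in stem than in root in 160 of the 200 members, lower in 33 and equal in 7. Over all 61856 unigenes the mean was higher in stem in 36.7%. At or under 1 RPKM in stem and root, but not within the leaf limit, were 15559 unigenes with some value above 0 there. Of these, 36.9% had a higher mean in stem. Among the 737 unigenes within the limits but outside the first 200 it was higher in stem in 69.9%. The lean towards stem is thus not particular to the 200 members. The members' summed RPKM was 61.0, 48.1 and 39.6 in stem replicates 1, 2 and 3, against 20.9, 19.1 and 18.6 in root replicates 1, 2 and 3. The lowest stem sum was above the highest root sum. On this deposited scale stem samples differed among themselves more than root samples did. With median-ratio scaling the stem sums ran from 43.0 to 52.8 and the root sums from 15.3 to 19.0. All 3 stem values lay above all 3 root values in 45 members (22.5%), against 5.19% of all unigenes and 14.7% of the 737. The reverse held for 3 members (1.5%), against 7.69% of all unigenes and 2.58% of the 737. These 3, named after their values were seen, were PB.38338.2, PB.47742.3 and PB.14256.1. PB.47742.3 had 0, 0.17 and 0.19 RPKM in stem replicates 1, 2 and 3, against 0.38, 0.90 and 0.30 RPKM in root replicates 1, 2 and 3.

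**Figure D3:**
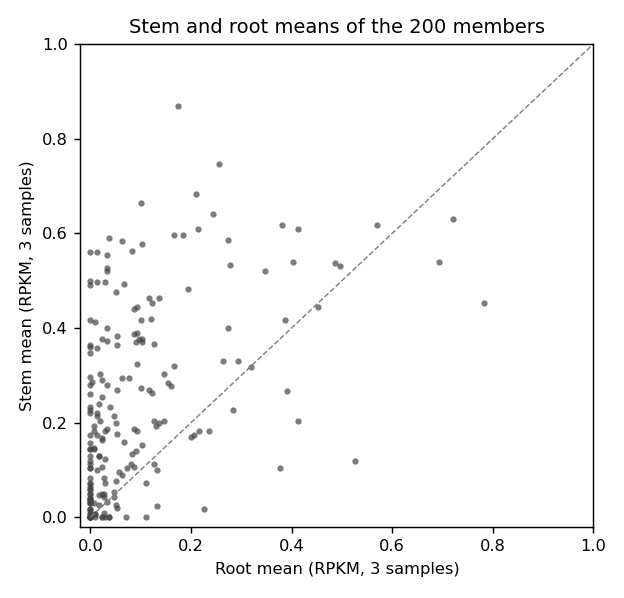
Mean of the 3 stem samples against the mean of the 3 root samples (RPKM, linear axes) for the 200 members, with the dashed line at equal values. Above the line lie 160 members and below it 33, and all values are under 1 RPKM by the limits.

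The test of stem against root covered the 94 members that exceeded 0.1 RPKM in 3 or more stem and root samples, and was fitted by limma on log2(RPKM + 0.1) with adjustment over all 47219 unigenes tested. No member (0 of 94) was called at an adjusted p-value under 0.05 and a difference of 2-fold or more, while 0.396% of all tested unigenes were, 0.282% higher and 0.114% lower in stem. With the replicate number as a block in limma, 0 members were called, while 1.56% of all tested unigenes were, 1.08% higher and 0.481% lower in stem. At an unadjusted p-value under 0.05 in limma stood 31 of the 94 members, 29 higher in stem and 2 lower. Of all 47219 tested unigenes 9.6% stood there, 4.7% higher in stem and 4.9% lower. The 2 lower ones were PB.14256.1 and PB.47742.3. Of the 94 members, 18 passed the filter through stem alone and 1 through root alone, so a difference was built into these. All 18 were among the 29 higher in stem, and the 1 was PB.14256.1. Most of the 29 thus had a difference built in. The counts over the 94 are not independent of the filter and are no support for a difference. The median difference between stem and root on the log2(RPKM + 0.1) scale was 0.60 over all 200 members, against -0.09 over all unigenes.

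The smallest adjusted p-values belonged to PB.61404.1 and PB.45834.1, which were chosen after their values were seen. Both passed the filter through stem alone, so a difference was built in. Their p-values and calls are given as a description. PB.61404.1 had 11.5, 12.1 and 16.8 RPKM in leaf replicates 1, 2 and 3, 0.51, 0.73 and 0.44 RPKM in stem replicates 1, 2 and 3, and was listed at 0 in all 3 root samples. Its fitted change in stem against root was 2.70 on the log2(RPKM + 0.1) scale, with a standard error of 0.41 and an adjusted p of 0.0605 from limma. PB.45834.1 had 15.0, 27.0 and 21.0 RPKM in leaf, 0.56, 0.56 and 0.38 RPKM in stem, and 0 in all 3 root samples, with a fitted change of 2.57, a standard error of 0.40 and an adjusted p of 0.0637 from limma. With the replicate number as a block, the adjusted p-values of PB.61404.1 and PB.45834.1 were 0.0533 and 0.0566 from limma. Because root was listed at 0, the fitted changes of both depend on the added 0.1 RPKM. Both were called when the samples were scaled further, at adjusted p-values of 0.0319 and 0.0319 from limma with median-ratio scaling and of 0.0390 and 0.0385 with quantile normalization. In these fits 0.845% and 0.52% of all tested unigenes were called higher in stem. When leaf was included in the fit, both were among 8 members called, all higher in stem, against 1.4% of the 50225 unigenes then tested. All 200 members entered that fit, since their leaf values carried them past the filter. The leaf samples that chose the members also entered the shared spread, so these 8 calls are a description and no support for a difference.

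Stem replicate 1 stood out among the low values on the deposited scale. Among the 194 members with a value above 0 in stem or root, the highest of the 6 samples was stem replicate 1 in 82, stem replicate 2 in 41 and stem replicate 3 in 38. Root replicates 1, 2 and 3 were highest in 11, 15 and 7. With median-ratio scaling the members' sums were 51.5, 43.0 and 52.8 in stem replicates 1, 2 and 3, against 16.9, 15.3 and 19.0 in root replicates 1, 2 and 3. Stem replicate 3 was then the highest, so the order among stem samples depends on the scaling while stem stayed above root. Without stem replicate 1 the mean was higher in stem in 142 members and lower in 44.

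To see how far the set depends on single samples, the limits were applied without each of the 9 samples in turn, and the first 200 unigenes were then read in the sample that had been left out. The left-out sample did not enter that choice. Of the 200 unigenes chosen without leaf replicate 2, all but 1 (99.5%) were above 1 RPKM in it, and of those chosen without leaf replicate 3 all 200 were. The 1 exception, named after its values were seen, was PB.49691.1, with 10.7 and 9.66 RPKM in leaf replicates 1 and 3 but 0.75 RPKM in leaf replicate 2. Among all unigenes above 1 RPKM in the 2 remaining leaf samples, 94.5% were above 1 RPKM in leaf replicate 2 and 97.3% in leaf replicate 3.
Of the 200 unigenes chosen without leaf replicate 1, 168 (84.0%) were above 1 RPKM in it and 32 were not, against 95.3% of all unigenes above 1 RPKM in leaf replicates 2 and 3. The 32 had at most 0.62 RPKM in leaf replicate 1, and 23 of the 200 were listed at 0. This gap between leaf replicates 1 and 2 belonged to the first 200. When all unigenes within the limits were taken in place of the first 200, 82.8%, 83.4% and 92.2% were above 1 RPKM in leaf replicates 1, 2 and 3 when left out.

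Between stem and root, the limit held more often in the left-out root samples. Of the unigenes chosen without a root sample, 97.5%, 98.5% and 99.0% stayed at or under 1 RPKM in root replicates 1, 2 and 3. These shares were near those of all unigenes at or under 1 RPKM in the other 5 samples, 96.7%, 96.2% and 97.5%. In stem the shares were 79.0%, 92.5% and 92.0% for replicates 1, 2 and 3. Among all unigenes at or under 1 RPKM in the other 5 stem and root samples, 97.6%, 98.6% and 98.5% stayed so in stem replicates 1, 2 and 3. That comparison sets no leaf limit. With all unigenes within the limits in place of the first 200, the shares were 84.1%, 92.8% and 94.1% in stem replicates 1, 2 and 3. In root replicates 1, 2 and 3 they were 96.0%, 95.0% and 96.6%. Without stem replicate 1, 42 of the 200 chosen unigenes were above 1 RPKM in it, with a median of 1.78 RPKM among them and a highest value of 6.82 RPKM. That value belonged to PB.34357.1, chosen after its values were seen, which had 63.2, 37.1 and 64.9 RPKM in leaf replicates 1, 2 and 3, 6.82, 0.67 and 0.78 RPKM in stem replicates 1, 2 and 3, and 0.10, 0 and 0 RPKM in root. For stem replicate 3 the highest such unigene, likewise picked with its values known, was PB.37014.1, at 11.04 RPKM there against 0.57 and 0.96 RPKM in stem replicates 1 and 2.

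**Figure D4:**
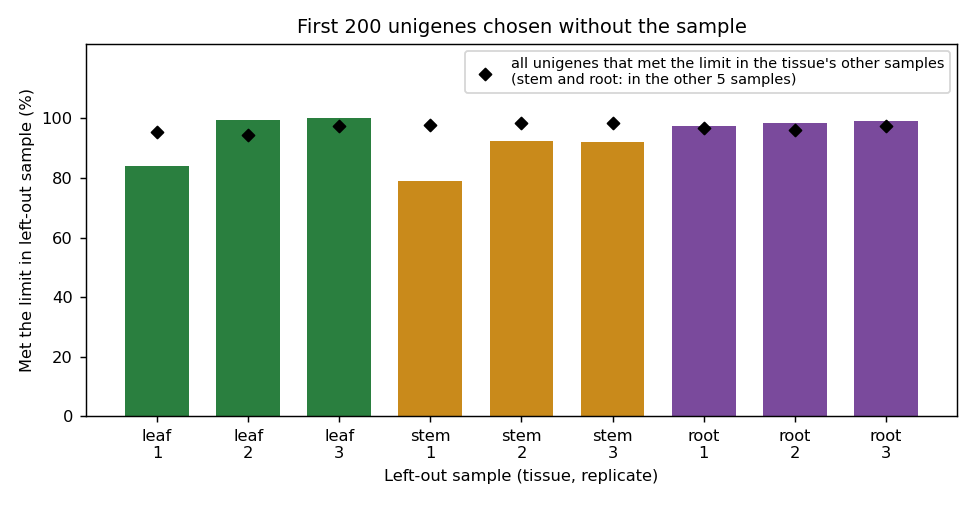
Percent of the first 200 unigenes, chosen without a sample, that met the 1 RPKM limit in that sample (bars: above it for leaf, at or under it for stem and root). Diamonds give the same percent over all unigenes that met the limit in the other samples of leaf, or in the other 5 of stem and root. Leaf replicate 1, at 84.0%, and stem replicate 1, at 79.0%, lie furthest under their diamonds.

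Counted the other way, 27090 unigenes were above 1 RPKM in all 3 leaf samples and 20528 of these were also above 1 RPKM in all 6 stem and root samples. A further 430 missed the leaf restriction through a single stem or root sample. Stem replicate 1 accounted for 177 of these, stem replicates 2 and 3 for 73 and 59, and root replicates 1, 2 and 3 for 39, 49 and 33. Of the 177, 50 reached the 5.29 RPKM of the last member in every leaf sample, as did 201 of the 937 unigenes within the limits.

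The unigenes missing from leaf replicate 1 formed a set with a shared pattern, described here after their values were seen. With at least 5.29 RPKM in leaf replicates 2 and 3, at or under 1 RPKM in leaf replicate 1 and at or under 1 RPKM in stem and root, there were 38 unigenes. Their median was 9.56 RPKM in leaf replicate 2 and 24.8 RPKM in leaf replicate 3. In 35 of the 38 leaf replicate 3 was the higher of the 2, with a median ratio of 2.70 over the 38. Over the 200 members the median ratio of leaf replicate 3 to leaf replicate 2 was 1.11. In 18 of the 38 all other 7 samples were listed at 0, whereas 6 of the 200 members were at 0 in the 6 stem and root samples. PB.54993.1 had the highest values, with 0.62, 78.6 and 202.0 RPKM in leaf replicates 1, 2 and 3, 0.33, 0 and 0 RPKM in stem, and 0.09, 0.18 and 0 RPKM in root. PB.59150.1 had 0, 20.5 and 18.0 RPKM in leaf replicates 1, 2 and 3 and was listed at 0 in every stem and root sample. In the mirrored case of leaf replicate 2 there were 2 such unigenes, PB.49691.1 and PB.60966.1, and for leaf replicate 3 there were 0. The contrast held from 5.29 RPKM up. With more than 1 RPKM in the other leaf samples in place of that floor, 195 unigenes were low in leaf replicate 1 alone among the leaf samples, 186 in leaf replicate 2 and 79 in leaf replicate 3. None of the 38 is a member, since the limits ask for all 3 leaf samples.

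**Figure D5:**
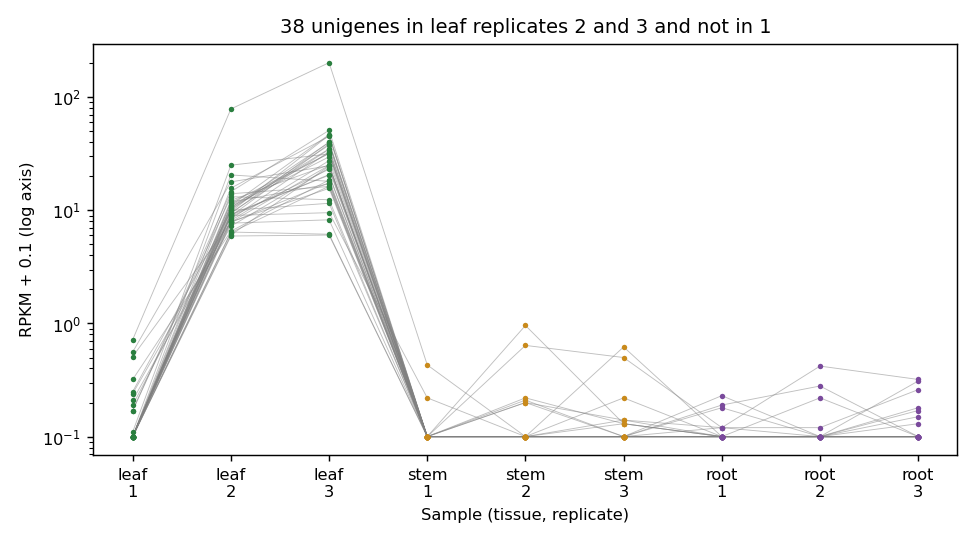
RPKM + 0.1 on a log axis in the 9 samples for the 38 unigenes with at least 5.29 RPKM in leaf replicates 2 and 3 and at most 1 RPKM elsewhere. Each line joins the values of 1 unigene. Leaf replicate 1 lies with stem and root, and leaf replicate 3 is above leaf replicate 2 in 35 of the 38.

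Within leaf the members varied more between samples than the unigenes that reached the members' lowest leaf value. Those unigenes include the members and were not matched to them in level. The SD of log2(RPKM + 0.1) over the 3 leaf samples had a median of 0.31 over the 200 members (quartiles 0.19 and 0.49). It was 0.18 over the 13218 unigenes with at least 5.29 RPKM in all 3 leaf samples, and 0.23 over all 27090 above 1 RPKM in leaf. The highest leaf value was less than 2 times the lowest in 156 members (78.0%), against 94.3% of the 13218. It was over 4 times the lowest in 8 members (4.0%), against 0.439%. These are descriptions of 3 samples and carry no test. Leaf replicate 3 was the highest of the 3 in 87 members, leaf replicate 1 in 66 and leaf replicate 2 in 47, shares of 43.5%, 33.0% and 23.5%. Over the 13218 the shares were 38.4%, 34.4% and 27.2% in the same order of samples.
The member with the largest spread was PB.59796.1, with 9.20, 97.4 and 65.7 RPKM in leaf replicates 1, 2 and 3, against 0.17, 0.27 and 0.11 RPKM in stem and 0, 0 and 0.09 RPKM in root. Leaf replicate 1 was low here, as in the 38 unigenes above, but stayed over the limit. PB.6356.29 had 21.3, 144.7 and 34.6 RPKM in leaf replicates 1, 2 and 3, was listed at 0 in all 3 stem samples, and reached 0.27 RPKM in root. PB.61484.1 had 5.92, 38.0 and 8.49 RPKM in leaf replicates 1, 2 and 3. In these last 2 unigenes leaf replicate 2 alone was high. The steadiest members were PB.46595.1, with 12.5, 12.4 and 12.6 RPKM in leaf replicates 1, 2 and 3, and PB.53273.1, with 13.5, 13.6 and 14.1 RPKM.
Across the 200 members the Spearman correlations of leaf replicates 1 and 2, 1 and 3, and 2 and 3 were 0.810, 0.881 and 0.856. Across the 13218 unigenes, whose levels were not matched to the members, they were 0.940, 0.950 and 0.947. The members are unigenes of the same 3 libraries and not independent replicates, so these values describe the order of levels within the set.

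Leaf held more unigenes of this kind than the other organs under the same limits. Above 1 RPKM in 1 organ and at or under 1 RPKM in the 6 samples of the others were 937 unigenes for leaf, 16 for stem and 277 for root. These are 3.46%, 0.0672% and 1.03% of the unigenes above 1 RPKM in all 3 samples of leaf, stem and root. The levels differed as well. The highest lowest value was 646.0 RPKM for leaf, 3.79 RPKM for stem and 108.1 RPKM for root, and 201 unigenes of leaf, 0 of stem and 20 of root reached 5.29 RPKM in all 3 samples of their organ. The transcriptome behind the IDs was built from pooled B1 RNA in which most samples were leaves, and its part in these counts was not tested. When 2 of the 3 samples of an organ were enough, the counts were 1397 for leaf, 113 for stem and 1004 for root.

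The IDs hold numbers called here a locus number and an isoform number, which the limits did not use apart from ties. The study does not say what they stand for. All 61856 unigenes had different locus numbers, which are not read as places in the genome. Isoform number 1 was carried by 114 members (57.0%), by 70.6% of all unigenes and by 39.6% of the 13218 unigenes above. Isoform numbers of 10 or more were carried by 12 members (6.0%), by 3.13% of all unigenes and by 11.6% of the 13218. In both respects the members lay between all unigenes and the 13218. Locus numbers in the last sixth of the range were carried by 71 members (35.5%), by 16.7% of all unigenes and by 33.2% of the 13218. The members' share was thus near that of the 13218. No 2 members had neighbouring locus numbers (0 pairs), from which no distance in the genome is read.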

How the data were processed

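Root, stem and leaf of B1 were sequenced as paired-end Illumina libraries, 3 samples each. The deposited values are RPKM, made by the authors, who filtered low-quality reads, mapped the rest to their PacBio unigenes (HISAT2 2.05 per the submitters' processing notes) and ran RSEM for the expression estimates. The study's methods call the unit FPKM. Reads that fit several similar unigenes are split by RSEM, which makes near-identical copies uncertain. The study lists the clean bases of each library, but the values hold no counts per unigene, so the reads behind a value are unknown, no counting interval was computed, and no count model was run.

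All 9 columns were assigned by the sample number in the labels, leaving 0 unused. Members were found by limits of 1 RPKM and ranked by the lowest leaf value, ties by ID. The members and lists were chosen with earlier results of these data known. Stem was set against root by limma (version 3.58.1, R version 4.3.3) using log2(RPKM + 0.1), on the 6 stem and root samples, with an intensity trend and Benjamini-Hochberg adjustment, over unigenes that exceeded 0.1 RPKM in 3 or more of these. A pseudocount of 1 RPKM would hold every member at or under a fold change of 2. Calls needed an adjusted p under 0.05 and a fold change of at least 2, the study's thresholds. The procedure was tested on simulated data. Counts and figures were made in Python (3.11.15; numpy 2.4.6, pandas 2.3.3).

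Unigenes were named by a rule: the 5 highest members, the 2 members and 2 other unigenes at the cut, the 3 with the largest and 2 with the smallest leaf spread, the 3 with the largest summed stem and root value, and up to 4 called between stem and root. Others are marked as chosen after their values were seen.

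Whether replicate numbers pair the samples was checked from each sample's deviation from its tissue mean on log2(RPKM + 1). For stem and root the correlations were 0.605, 0.573 and 0.664 for numbers 1, 2 and 3, all over 0.1, so the numbers were taken to pair these samples, from the values alone. The main fit of stem against root left this pairing out. The fit with the replicate number as a block is given beside it. For leaf and stem they were 0.333, 0.128 and -0.0297 and for leaf and root 0.352, 0.182 and 0.0259. Number 3 was under the limit in both, so leaf was not taken as paired.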

Additional observations from a re-analysis of the deposited data

How the results depend on the processing

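The number of leaf-limited unigenes, 937, ran from 825 to 1149 with 3 other limits of 0.5 RPKM or more, median-ratio scaling and quantile normalization, and from 970 to 1132 when 1 sample was left out. A limit of 0.1 RPKM for all samples gave 440. Ranking by the mean or median leaf value, or scaling, left between 177 and 186 of the 200 members among the first 200. A limit of 0.5 RPKM for stem and root left 116 of them and a limit of 0.1 RPKM left 30, by construction. Under the 4 alternatives run, the share kept ran from 80.5% to 92.0% in leaf replicate 1 and from 76.0% to 84.1% in stem replicate 1. With median-ratio scaling it was 82.0% in stem replicate 1 and 85.5% in stem replicate 3, against 79.0% and 92.0% on the deposited scale. The gap between these stem samples thus depends on the scaling. Without the 100 highest unigenes in the total, the members held 1.03% of the summed RPKM in leaf, 0.00637% in stem and 0.00262% in root.

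No member was called between stem and root, nor with a pseudocount of 0.01, other filters, no trend, no fold limit, or any 1 stem or root sample left out (0 in each). A pseudocount of 1 RPKM also gave 0, but holds every member at or under a fold change of 2. That 0 was thus set in advance. Members called numbered 2 with median-ratio scaling, 2 with quantile normalization and 8 with all 9 samples in 1 fit. That last fit takes in the leaf values that chose the members. With the replicate block 0 members were called, with a smallest adjusted p of 0.0533 from limma, while the call over all unigenes moved from 187 to 736, 509 higher and 227 lower in stem. That total of 187 was 85 with a pseudocount of 0.01, 112 with any unigene above 0, 95 without the trend, 487 with median-ratio scaling, 327 with quantile normalization and 987 with all 9 samples. It ran from 2 to 175 with 1 sample left out: 175 without stem replicate 3, and 5 or fewer without any other. Median-ratio scaling changed its split from 133 higher and 54 lower in stem to 398 and 89, and the median change of all tested unigenes from -0.19 to -0.01. Members with a higher mean in stem than in root numbered 142 to 171 under the scalings and with 1 sample left out, alternatives added after seeing the data. The share over all unigenes was 45.9% with median-ratio scaling and 43.3% with quantile normalization. With 1 sample left out it ran from 32.9% to 41.2%.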

Other observations

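Replicate numbers that paired stem with root over all unigenes did so less in the members. Across the 200 members, deviations of stem and root samples of the same number had correlations of 0.0598, 0.271 and 0.0487 for numbers 1, 2 and 3, and pairs with different numbers ran from -0.190 to 0.115. Across 50225 unigenes the same-number values were 0.605, 0.573 and 0.664. The members' values in stem and root are all at or under 1 RPKM, and these correlations are across unigenes, which are not independent replicates.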
